A study of Mus musculus with 8 samples.

Results

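Mammary ducts have an outer layer of basal cells. The comparison described here was made within that layer, between basal cells that carried much of the surface protein Tspan8 (T8) and basal cells that lacked it, both sorted as negative for Lgr5. The populations are called Lgr5-T8hi and Lgr5-T8-. They account for 4 of the 8 RNA-seq libraries of the study, 2 per population, and were taken by the population that the labels name. The mice were untreated C57BL/6 females of 10 weeks with the genotype Lgr5-GFP-IRES-CreERT2, a reporter allele that places green fluorescent protein and an inducible Cre recombinase under the control of the Lgr5 locus. Every population of the study came from mice with this allele, and Lgr5 negative therefore means negative in a sort of such mice. The other 4 libraries, Lgr5+T8hi and Lgr5+T8-, entered the model to estimate the spread and the batch effect, and they served to test where the contrast differed in Lgr5+ cells.

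Basal cells, also called myoepithelial cells, hold the actin and myosin of smooth muscle and contract in response to oxytocin to eject milk. They also lay down much of the basement membrane, a sheet of laminins and type IV collagen on which the epithelium rests, while the luminal cells inside them are sealed by tight junctions and make the milk. Tspan8 is a tetraspanin, one of a family of membrane proteins that gather adhesion and signalling partners at the cell surface. Lgr5 is a receptor for R-spondins, secreted proteins that strengthen Wnt signalling, and it marks stem cells of several epithelia.

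The 4 libraries held 25904146 to 38384875 gene counts, and 19043 to 19771 genes had at least 1 count. Each population had 1 library in batch 1 and 1 in batch 2, as the labels record without saying what a batch was. No label states that the libraries of a population came from different mice. The p-values therefore weigh differences only against the variation among these libraries, which could be technical. Levels are given as CPM (counts per 1000000 counts, with library sizes adjusted by TMM), always in the order batch 1 and batch 2. Changes are log2 fold changes of Lgr5-T8hi over Lgr5-T8- ± standard error from edgeR's quasi-likelihood test with batch in the model, and p-values are adjusted over all 16526 genes tested, with a threshold of 0.05. A change is named higher, lower, risen or fallen where it passed.

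The sort markers were read first, as a check of the labels. Tspan8 (chromosome 10, 115816817 to 115849893, GRCm38.p6) stood at 167 and 150.2 CPM in Lgr5-T8hi cells and at 4.37 and 3.16 CPM in Lgr5-T8- cells. The libraries did not overlap, and the difference was 5.40 ± 0.15 (edgeR adjusted p = 2.07e-09). Lgr5 (chromosome 10, 115450314 to 115587780) was measured at 119 and 129 CPM in Lgr5-T8hi cells and at 58.4 and 50.5 CPM in Lgr5-T8- cells. Lgr5 transcripts were thus present in both populations that had been sorted as Lgr5-, and they were higher by 1.18 ± 0.11 with Tspan8 (edgeR adjusted p = 5.68e-05). In the Lgr5+ populations the levels of Lgr5 were 174 and 193 CPM with Tspan8 and 185 and 212 CPM without it, all 4 above the 4 Lgr5- values. Because the populations were named by their Lgr5 and Tspan8 status in the sort, these values describe it. The keratins that define basal cells did not pass the threshold: Krt5 stood at 2227 and 2371 CPM against 2106 and 2203 CPM, and Krt14 at 5268 and 3876 CPM against 4548 and 3708 CPM.

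**Figure D1:**
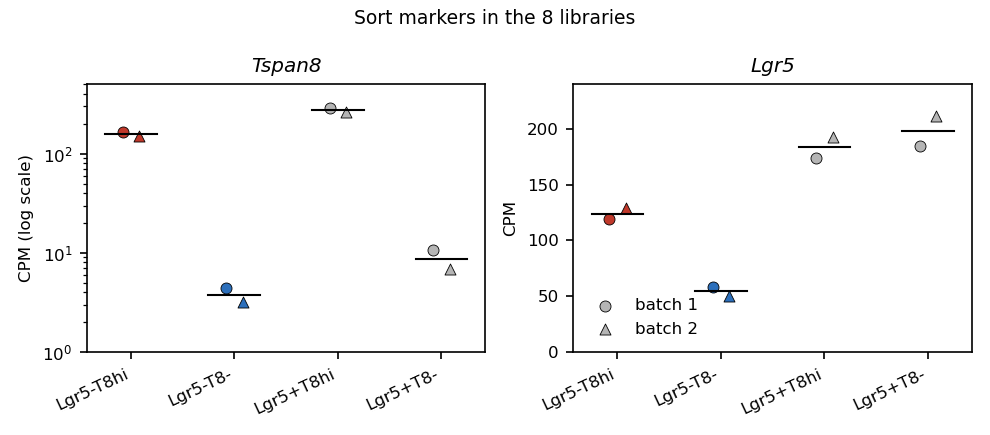
Levels of Tspan8 (left, CPM on a log scale) and Lgr5 (right, CPM) in each of the 8 libraries, with circles for batch 1, triangles for batch 2 and a line at the mean of a population. Tspan8 lies at 150.2 CPM or more in the Lgr5-T8hi libraries and at 4.37 CPM or less in the Lgr5-T8- libraries, and Lgr5 in Lgr5-T8hi cells lies between Lgr5-T8- cells and the Lgr5+ populations.

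Of the genes tested, 1167 (7.06%) passed the threshold. Of all genes tested, 611 (3.70%) were higher and 556 (3.36%) lower in Lgr5-T8hi cells, and 259 (1.57%) and 186 (1.13%) of all genes tested were so by at least 2-fold. Without a test, both Lgr5-T8hi libraries lay above both Lgr5-T8- libraries for 2767 genes (16.7%) and below them for 2531 genes (15.3%). Shares of about this size would also arise from a random order of 2 and 2 libraries. A lack of overlap in a single gene therefore shows little by itself. The median over all genes tested was -0.01. The counts of each gene list below stand beside the 3.70% higher and 3.36% lower of all genes tested. Without the batch term 76 genes were higher and 71 lower, and all 147 were among the 1167 calls made with it. Of the 138 called genes named in the text, 94 lost their call without that term. The counts also moved with single libraries. They were 290 higher and 199 lower without Lgr5-T8hi replicate 1, 362 and 237 with Lgr5-T8hi replicate 2 left out, and 926 and 1017 without Lgr5-T8- replicate 2. Of the genes called, 202 of 611 higher and 157 of 556 lower genes held in each of the 8 fits that left out 1 library. Of the 138 called genes named in the text, 54 lost their call in at least 1 such fit, 131 lost calls in all, and in 124 of the 131 the log2 fold change stayed within 1.5 times its value. For most of them the library and the adjusted p without it follow the value. Where replicates 1 and 2 are given together, each was left out on its own.

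**Figure D2:**
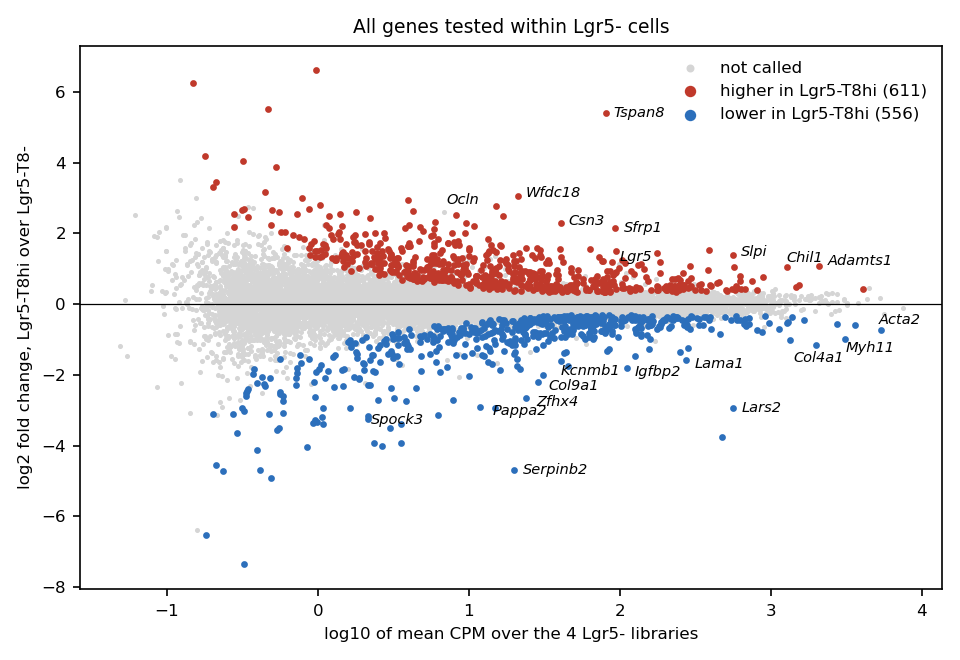
Each point is 1 of the 16526 genes tested, with the log10 of its mean CPM over the 4 Lgr5- libraries on the horizontal axis and its log2 fold change on the vertical axis, red where higher (611) and blue where lower (556) in Lgr5-T8hi cells. Above 5 CPM, Tspan8, Wfdc18, Ocln and Csn3 are among the highest points and Serpinb2, Lars2, Pappa2 and Zfhx4 among the lowest, and the abundant contractile and collagen genes Acta2, Myh11 and Col4a1 lie below 0.

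Genes of milk and of the luminal layer held many of the highest fold changes. Wfdc18, a member of the whey acidic protein family (chromosome 11, 83709004 to 83711360), stood at 36.0 and 39.5 CPM in Lgr5-T8hi cells and at 3.70 and 5.51 CPM in Lgr5-T8- cells, and rose by 3.05 ± 0.19 (edgeR adjusted p = 1.87e-05). Ocln, which encodes the tight junction protein occludin (chromosome 13, 100496504 to 100552718), was at 34.2 and 18.8 CPM against 4.34 and 3.31 CPM, a rise of 2.77 ± 0.14 (edgeR adjusted p = 9.99e-07). Csn3, the gene of kappa-casein (chromosome 5, 87925579 to 87932550), was at 81.4 and 54.7 CPM against 15.9 and 11.5 CPM, a rise of 2.30 ± 0.14 (edgeR adjusted p = 3.67e-06). All 3 were higher in both batches and no library of one population reached the other. In bulk samples such as these, fewer cells of a type and less RNA per cell cannot be told apart, and that holds for every group described below.

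Among milk protein and milk fat globule genes, 5 of the 15 tested were higher and 1 was lower, with a median of 0.99 against -0.01 over all genes tested. Besides Csn3 and Wfdc18, the gene of alpha-lactalbumin, Lalba, was at 3.52 and 2.64 CPM against 0.485 and 0.515 CPM (2.61 ± 0.32, edgeR adjusted p = 3.38e-04). Btn1a1, butyrophilin of the milk fat globule membrane, was at 10.7 and 8.36 CPM against 2.76 and 1.65 CPM (2.12 ± 0.21, edgeR adjusted p = 1.06e-04). Muc15, a membrane mucin, was at 37.9 and 40.0 CPM against 14.4 and 17.5 CPM (1.29 ± 0.12, edgeR adjusted p = 4.56e-05). These 5 calls held without each library in turn. The member that fell was Mfge8, which encodes lactadherin, at -0.39 ± 0.09 (edgeR adjusted p = 0.0259), and its adjusted p was 0.430 without Lgr5-T8hi replicate 1, 0.267 with Lgr5-T8hi replicate 2 left out and 0.0509 without Lgr5+T8hi replicate 2. The 5 members that had too few counts to be tested were the other caseins Csn1s1, Csn1s2a, Csn1s2b and Csn2, at 0.826 CPM or less in every library, and Wap, with 0 counts in all 4, which allows up to 0.116 CPM in the smallest library. Glycam1 was at 27.7 and 4.53 CPM against 25.7 and 19.4 CPM and Ltf, lactoferrin, at 24.1 and 21.6 CPM against 14.4 and 9.37 CPM, neither past the threshold.

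Genes that all luminal cells share gave 11 higher and 0 lower of 20, with a median of 0.63 and every member on the positive side. Cldn7, a claudin of tight junctions, stood at 18.9 and 16.4 CPM against 4.43 and 3.38 CPM (2.20 ± 0.24, edgeR adjusted p = 7.72e-04), and was at 0.0684 without Lgr5-T8- replicate 1. Muc1, a mucin of the apical membrane, stood at 23.9 and 18.9 CPM against 12 and 8.60 CPM (1.07 ± 0.11, edgeR adjusted p = 1.23e-04). Spint1, an inhibitor of membrane serine proteases, stood at 26.9 and 21.8 CPM against 13.1 and 11.6 CPM (0.98 ± 0.11, edgeR adjusted p = 1.68e-04). The luminal keratin Krt18 rose less, from 209.9 and 154 CPM to 414 and 264 CPM (0.87 ± 0.14, edgeR adjusted p = 0.00295), with an adjusted p of 0.0869 without Lgr5-T8- replicate 1. The summed level of the 20 genes was 3788 and 2814 CPM in Lgr5-T8hi and 2729 and 2185 CPM in Lgr5-T8- cells, so that the groups did not overlap. The milk genes summed to 894 and 968 CPM against 902 and 1065 CPM, and most of each sum came from members other than the 5 that rose. The luminal progenitor genes summed to 2430.1 and 1939.6 CPM against 2191 and 2075 CPM. In both lists the groups overlap. Of the 20 genes that all luminal cells share, 11 were higher, a count that moved with 1 library. Without Lgr5-T8- replicate 1 the number of higher members was 5.

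Genes of luminal progenitors, the luminal cells that precede milk secretion, gave 7 higher and 1 lower of 18, with a median of 0.47, or 0.73 without Lgr5-T8- replicate 2. Elf5, a transcription factor of the alveolar lineage, was at 5.58 and 7.70 CPM against 1.18 and 1.65 CPM (2.22 ± 0.24, edgeR adjusted p = 1.68e-04). Ehf, a related epithelial factor, was at 10.4 and 11.8 CPM against 2.91 and 3.82 CPM (1.73 ± 0.16, edgeR adjusted p = 5.68e-05). Cd14, a coreceptor for bacterial lipopolysaccharide, was at 32.1 and 30.0 CPM against 14.3 and 9.34 CPM (1.43 ± 0.14, edgeR adjusted p = 1.12e-04). The lower member was the integrin gene Itgb3, at 36.1 and 48.0 CPM against 59.6 and 67.9 CPM (-0.62 ± 0.12, edgeR adjusted p = 0.00746), and it was at 0.0705 without Lgr5-T8hi replicate 1 and 0.0791 with Lgr5-T8hi replicate 2 left out. Of 19 genes of hormone-sensing luminal cells, 3 were higher and 1 was lower, with a median of 0.50 that was 0.18 without Lgr5-T8- replicate 2, 0.26 with Lgr5-T8hi replicate 1 left out and 0.32 without Lgr5-T8hi replicate 2. The estrogen receptor gene Esr1 and the progesterone receptor gene Pgr were at 0.22 and -0.01, neither past the threshold. Foxa1, a cofactor that opens chromatin for the estrogen receptor, was at 10.2 and 8.60 CPM against 4.0 and 4.04 CPM (1.22 ± 0.17, edgeR adjusted p = 9.82e-04), and the T-box factor Tbx3 at 88.4 and 72.0 CPM against 52.0 and 46.8 CPM (0.69 ± 0.10, edgeR adjusted p = 0.00136). The other 2 calls were Cited4, higher at 1.02 ± 0.24 (edgeR adjusted p = 0.0241), and the FGF receptor Fgfr4, lower at -1.02 ± 0.19 (edgeR adjusted p = 0.00524). Cited4 was at an adjusted p of 0.0604 to 0.189 without either library of either Lgr5- population, and Fgfr4 at 0.103 without Lgr5-T8hi replicate 1.

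The smooth-muscle contractile genes moved the other way: 18 of 28 were lower and 0 were higher in Lgr5-T8hi cells, with a median of -0.53 (-0.51 in batch 1 and -0.48 in batch 2), and 27 had a negative value. Acta2, alpha smooth-muscle actin (chromosome 19, 34240336 to 34255585), was measured at 4099 and 4019 CPM in Lgr5-T8hi and at 6697 and 6760.0 CPM in Lgr5-T8- cells, and fell by 0.73 ± 0.10 on the log2 scale (edgeR adjusted p = 8.10e-04). Actg2, gamma smooth-muscle actin, was at 137 and 204 CPM against 363 and 435 CPM (-1.25 ± 0.10, edgeR adjusted p = 2.86e-05). Myh11, the smooth-muscle myosin heavy chain (chromosome 16, 14194527 to 14292188), was at 2341 and 1849 CPM against 4622 and 3653 CPM (-0.98 ± 0.10, edgeR adjusted p = 1.06e-04). The groups did not overlap for any of these, and both batches gave a decrease. Mylk, the kinase that switches myosin on, was at 914 and 811 CPM against 1424 and 1379 CPM (-0.70 ± 0.10, edgeR adjusted p = 7.37e-04). Cnn1, calponin, which binds thin filaments, was at 659 and 563 CPM against 1013 and 998 CPM (-0.73 ± 0.11, edgeR adjusted p = 0.00161). Without the batch term none of these genes passed in edgeR. The adjusted p was then 0.145 for Acta2, 0.0692 for Actg2, 0.130 for Myh11, 0.131 for Mylk and 0.247 for Cnn1. Of the channel genes below, Kcnmb1 and Kcnma1 passed without that term (0.00520 and 0.0232) and Ryr3 did not (0.173).

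The largest fold changes of the contractile list were in channels that set membrane potential and calcium release. Kcnmb1 and Kcnma1 encode the beta and alpha subunit of the calcium-activated BK potassium channel. Kcnmb1 was at 19.1 and 21.1 CPM against 57.4 and 64.4 CPM (-1.60 ± 0.09, edgeR adjusted p = 3.67e-06). Kcnma1 was at 3.68 and 2.80 CPM against 12.2 and 9.78 CPM (-1.77 ± 0.17, edgeR adjusted p = 5.91e-05). Ryr3, a channel that releases stored calcium, was at 3.54 and 2.24 CPM against 12.6 and 5.88 CPM (-1.64 ± 0.20, edgeR adjusted p = 3.08e-04). The oxytocin receptor gene Oxtr, was at 225 and 295 CPM against 237 and 306 CPM (-0.06 ± 0.09, edgeR adjusted p = 0.794). Serum response factor Srf was at -0.32 ± 0.10 (edgeR adjusted p = 0.0833), and its partners Myocd, Mrtfa and Mrtfb at -0.54, -0.29 and -0.08, none past the threshold. The number of lower members was 9 without Lgr5-T8hi replicate 1 and 8 with Lgr5-T8hi replicate 2 left out. Des, desmin, had the only positive value of the list, 0.49 ± 0.14 (edgeR adjusted p = 0.0518). With limma-voom, with no filter on counts, or without Lgr5-T8- replicate 2 or either Lgr5+T8- library, 1 member of the list was higher.

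Srf binds the CArG box, which is CC, then 6 bases of A or T, then GG. This pattern, though not each match to it, reads the same on both strands. It was searched in the RefSeq promoters of GRCm38.p6, from 250 bases before to 50 bases after a gene start. It was present in 535 of 32851 promoters (1.63%) and for 488 of 27025 genes (1.81%). Of the contractile list, 22 members had a promoter in the table, and 4 of them held the box: Myl6, Myl9, Srf and Vcl. Among the 18 members that were lower, 13 had a promoter and 2 held the box, Myl9 and Vcl, which are shown with the box in capitals because they carry this match among the genes that fell. A match describes the letters in this window and is not a bound site.
Myl9 promoter, chr2:156775214-156775513, plus strand: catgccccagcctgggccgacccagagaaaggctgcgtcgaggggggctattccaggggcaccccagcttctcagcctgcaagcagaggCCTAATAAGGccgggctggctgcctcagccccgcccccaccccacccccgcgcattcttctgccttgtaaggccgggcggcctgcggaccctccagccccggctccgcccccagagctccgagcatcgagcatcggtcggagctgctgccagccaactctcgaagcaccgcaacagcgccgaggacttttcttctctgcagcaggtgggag
Vcl promoter, chr14:20929148-20929447, plus strand: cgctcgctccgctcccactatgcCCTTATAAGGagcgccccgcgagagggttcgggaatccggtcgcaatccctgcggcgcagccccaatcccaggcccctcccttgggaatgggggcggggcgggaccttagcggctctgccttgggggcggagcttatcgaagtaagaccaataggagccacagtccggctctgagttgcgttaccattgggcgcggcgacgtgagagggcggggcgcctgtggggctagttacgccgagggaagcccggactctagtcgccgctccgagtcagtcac
The box starts 161 bases before the start of Myl9 and 227 bases before that of Vcl. Myl9, the regulatory light chain of myosin, was at 557 and 521 CPM against 791 and 808 CPM (-0.57 ± 0.11, edgeR adjusted p = 0.00788), and its adjusted p was 0.195 and 0.0624 without Lgr5-T8hi replicates 1 and 2. Vcl, vinculin, which anchors actin at adhesions, was at 647 and 515 CPM against 841 and 697 CPM (-0.41 ± 0.09, edgeR adjusted p = 0.0197), and its adjusted p was 0.229 and 0.370 without the same libraries. For both genes each Lgr5-T8hi library lay below each Lgr5-T8- library. For milk genes the corresponding search was for TTCNNNGAA, the core to which Stat5 binds, on both strands. It was in 2726 promoters (8.30%) and for 2582 genes (9.55%). Of 13 milk genes with a promoter, 5 held it: Csn1s1, Csn1s2a, Csn2, Glycam1 and Pigr. Csn1s1, Csn1s2a and Csn2 had too few counts to be tested, and Glycam1 and Pigr did not pass the threshold. Of the 6 milk genes called, 3 had a promoter to search and 0 held the motif.

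**Figure D3:**
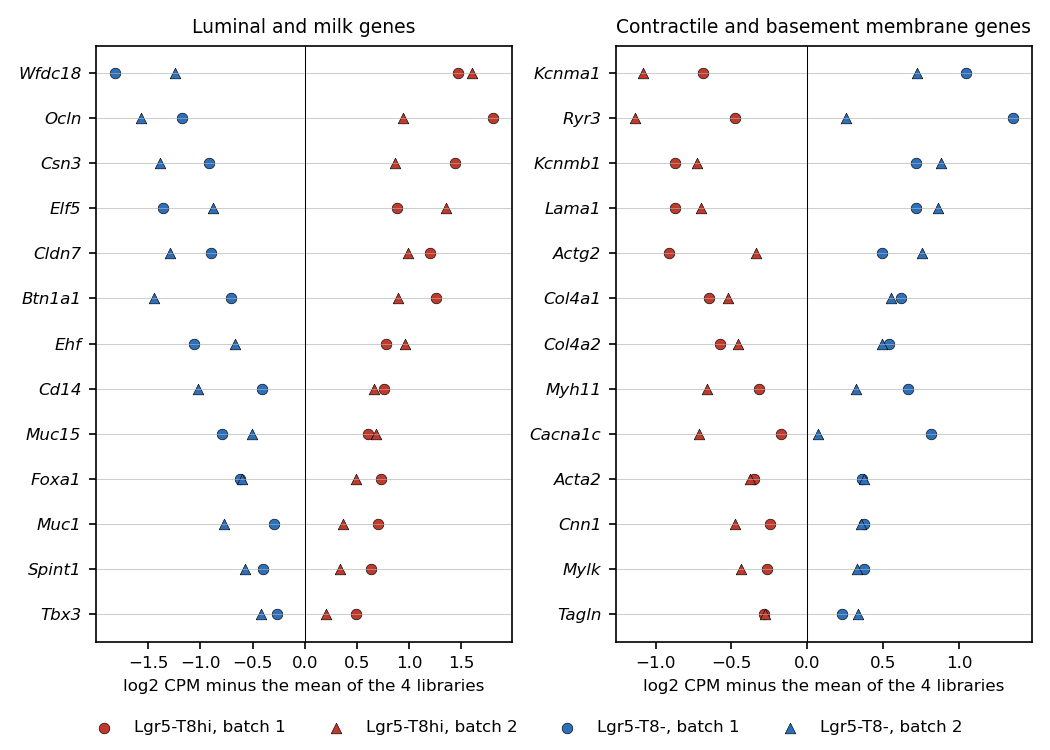
Level of each gene in each of the 4 libraries as log2 CPM minus the mean of the 4, for luminal and milk genes (left) and for contractile and basement membrane genes (right), in red for Lgr5-T8hi and blue for Lgr5-T8- cells, circles for batch 1 and triangles for batch 2. All red points lie to the right of all blue points for each gene on the left, such as Wfdc18 and Ocln, and to the left of them for each gene on the right, such as Kcnma1 and Acta2.

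Genes of basal identity gave 2 higher and 4 lower of 26, against 3.70% and 3.36% of all genes tested. Their median was -0.07. Tbx2, a T-box repressor, was at 10.3 and 8.84 CPM against 34.4 and 33.3 CPM (-1.83 ± 0.12, edgeR adjusted p = 3.67e-06). Nrg1, neuregulin 1, a ligand of the ErbB receptors, was at 26.4 and 12.3 CPM against 59.1 and 26.9 CPM (-1.15 ± 0.10, edgeR adjusted p = 3.25e-05). Nrg1 was higher in batch 1 than in batch 2 in both populations, and the higher Lgr5-T8hi library, at 26.4 CPM, lay just under the lower Lgr5-T8- library, at 26.9 CPM. The other lower members were Trp63, the master regulator of basal epithelium, at -0.45 ± 0.09, and the integrin gene Itga6, at -0.46 ± 0.11. Their adjusted p-values in edgeR were 0.0117 and 0.0259. Trp63 was at 0.133 and 0.282 without Lgr5-T8hi replicates 1 and 2. Itga6 was at 0.124 and 0.414 without these libraries, 0.0639 without Lgr5-T8- replicate 1 and 0.0547 with Lgr5+T8hi replicate 2 left out. The higher members were the stress keratin Krt16 at 0.59 ± 0.11 (edgeR adjusted p = 0.00450, 0.0810 without Lgr5-T8hi replicate 2) and the transcription factor Sox9 at 0.53 ± 0.09 (edgeR adjusted p = 0.00310, 0.0574 and 0.0719 with Lgr5-T8hi replicates 1 and 2 left out in turn).

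Of 27 basement membrane genes, 11 were lower and 2 higher, and their summed level was 12346 and 12742 CPM in Lgr5-T8hi and 17268 and 16353 CPM in Lgr5-T8- cells. The median was -0.21, or -0.13 without Lgr5-T8- replicate 1 and -0.34 with Lgr5-T8- replicate 2 left out. Col4a1 and Col4a2, which encode the main chains of type IV collagen, fell together. Col4a1 (chromosome 8, 11198423 to 11312889) was at 1167 and 1272 CPM against 2798 and 2675 CPM (-1.17 ± 0.11, edgeR adjusted p = 4.84e-05), and Col4a2 at 851 and 921 CPM against 1838 and 1780.1 CPM (-1.03 ± 0.10, edgeR adjusted p = 7.09e-05). Lama1, the laminin alpha 1 chain (chromosome 17, 67697127 to 67822645), was at 130.0 and 146 CPM against 390.4 and 431 CPM (-1.57 ± 0.11, edgeR adjusted p = 9.56e-06). Frem2, a large basement membrane adhesion protein, was at 49.1 and 44.5 CPM against 133 and 102 CPM (-1.33 ± 0.14, edgeR adjusted p = 3.27e-04). The higher members were Nid2, nidogen 2, at 29.0 and 20.9 CPM against 10.3 and 10.2 CPM (1.28 ± 0.12, edgeR adjusted p = 8.14e-05), and the laminin Lama2, at 0.96 ± 0.24 (edgeR adjusted p = 0.0439). The call of Lama2 was lost without Lgr5-T8- replicate 1 (0.293), Lgr5-T8hi replicate 1 (0.406), Lgr5+T8hi replicates 1 and 2 (0.0502 and 0.0533) and Lgr5+T8- replicates 1 and 2 (0.0538 and 0.0591). Without Lgr5-T8hi replicate 1 or 2, 5 members of the list were lower.

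Several genes stood much higher in Lgr5-T8- than in Lgr5-T8hi cells. Serpinb2, which encodes an inhibitor of plasminogen activators (chromosome 1, 107500892 to 107525600), was at 46.5 and 30.5 CPM in Lgr5-T8- cells, at 2.25 and 0.772 CPM in Lgr5-T8hi cells and at 0.643 CPM or less in the Lgr5+ libraries, a fall of 4.70 ± 0.34 on the log2 scale between the Lgr5- populations (edgeR adjusted p = 2.49e-04). Zfhx4, a zinc-finger homeobox factor (chromosome 3, 5218218 to 5415861), was at 46.2 and 36.3 CPM, and at 7.22 and 5.86 CPM in Lgr5-T8hi cells (-2.66 ± 0.16, edgeR adjusted p = 3.67e-06). Pappa2, a protease that frees insulin-like growth factors by cutting their binding proteins (chromosome 1, 158711727 to 158960451), was at 25.6 and 16.2 CPM, and at 4.09 and 1.68 CPM in Lgr5-T8hi cells (-2.90 ± 0.19, edgeR adjusted p = 5.57e-06). In the Lgr5+ libraries Zfhx4 was at 3.72 to 4.77 CPM and Pappa2 at 3.25 to 4.50 CPM. Spock3, a secreted proteoglycan, was at 1.07 and 1.49 CPM against 11.4 and 11.2 CPM (-3.14 ± 0.25, edgeR adjusted p = 2.05e-05). Col9a1, a chain of the cartilage collagen type IX, was at 10.1 and 10.2 CPM against 45 and 49.1 CPM (-2.21 ± 0.20, edgeR adjusted p = 1.99e-04). Lyve1, a hyaluronan receptor best known from lymphatic endothelium, was at 3.96 and 3.73 CPM against 20.9 and 11.7 CPM (-2.04 ± 0.20, edgeR adjusted p = 9.42e-05). The endothelial markers as a list summed to 219 and 454 CPM in Lgr5-T8hi and 281 and 319 CPM in Lgr5-T8- cells, which overlap, and their part in the level of Lyve1 was not tested.

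Lars2, the leucyl-tRNA synthetase of mitochondria (chromosome 9, 123366927 to 123462675), was at 1188 and 796 CPM in Lgr5-T8- cells, at 149 and 108 CPM in Lgr5-T8hi cells and at 103 to 216 CPM in the Lgr5+ libraries. It fell by 2.95 ± 0.27 (edgeR adjusted p = 0.00152). Without Lgr5-T8- replicate 1 it was at -2.78 (adjusted p = 0.140), and with Lgr5-T8- replicate 2 left out at -3.09 (adjusted p = 0.0741). Eya1, a transcriptional cofactor in organ development, was at 1.57 and 2.64 CPM against 12.8 and 14.6 CPM (-2.72 ± 0.19, edgeR adjusted p = 7.38e-06). Camk1d, a calmodulin-dependent kinase, was at 9.06 and 5.06 CPM against 31.0 and 19.9 CPM (-1.86 ± 0.16, edgeR adjusted p = 3.25e-05). Trpm3, a cation channel, was at 10.2 and 15.1 CPM against 50 and 48.2 CPM (-2.02 ± 0.34, edgeR adjusted p = 0.0248), but at an adjusted p of 0.261 and 0.341 without Lgr5-T8hi replicates 1 and 2 and of 0.112 with no filter on counts. Of 35 developmental transcription factors tested, of 47 on that list, 4 were lower and 2 higher, against 3.36% and 3.70% of all genes tested. Their median was 0.05. Eya1, Zfhx4 and Tbx2 were lower, as was Irx4 at -0.41 ± 0.10 (edgeR adjusted p = 0.0305). The higher ones were Tbx3 and Irx3, the latter at 0.62 ± 0.10 (edgeR adjusted p = 0.00202). Irx4 was at 0.307 and 0.258 without Lgr5-T8hi replicates 1 and 2, 0.119 with Lgr5-T8- replicate 2 left out, and 0.0726 and 0.0592 without Lgr5+T8hi replicates 1 and 2.

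Of 55 Wnt genes tested, of 59 on the list, 6 were higher and 5 lower, against 3.70% and 3.36% of all genes tested. The median of the 55 was -0.06, and -0.10 to -0.01 in the alternative fits where it moved. Of these genes 8 were lower without Lgr5-T8- replicate 2 or either Lgr5+T8- library, 3 with Lgr5-T8hi replicate 1 left out, and 2 lower and 3 higher without Lgr5-T8hi replicate 2. Sfrp1, a secreted protein that binds Wnt ligands (chromosome 8, 23411383 to 23449632), was at 176 and 125 CPM against 42.5 and 25.9 CPM (2.16 ± 0.11, edgeR adjusted p = 9.99e-07). Its relative Sfrp2 was at 31.9 and 31.4 CPM against 11.8 and 14.3 CPM (1.28 ± 0.11, edgeR adjusted p = 4.56e-05), and Sfrp5 at 8.35 and 8.04 CPM against 2.30 and 4.15 CPM (1.39 ± 0.22, edgeR adjusted p = 0.00236). With Dkk3, at 0.46 ± 0.09 (edgeR adjusted p = 0.00899), 4 of 12 secreted inhibitors were higher and 0 lower. Dkk3 was at 0.0865 and 0.200 without Lgr5-T8hi replicates 1 and 2. The 20 genes of receptors and of the R-spondin axis did not include the sort marker Lgr5, which was higher as given above. Of these 20, 0 were higher and 1 was lower, Ror2, a receptor of Wnt5a. Ror2 was at 2.99 and 2.42 CPM against 8.34 and 12.2 CPM (-1.91 ± 0.24, edgeR adjusted p = 5.22e-04).

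Of 12 Wnt ligands, 3 were lower and 2 higher. Wnt6 was at 3.60 and 8.44 CPM against 11.1 and 18.8 CPM (-1.38 ± 0.17, edgeR adjusted p = 3.34e-04), and it held without each library in turn. Wnt3, at 0.110 and 0.0533 CPM against 0.515 and 1.54 CPM, and Wnt5b, at -0.50 ± 0.10, were lower with adjusted p-values of 0.00959 and 0.0101 in edgeR. Wnt9a, at 0.73 ± 0.13, and Wnt11, at 0.43 ± 0.10, were higher with adjusted p-values of 0.00536 and 0.0211 in edgeR. These 4 were lost without Lgr5-T8hi replicate 2, at 0.305 for Wnt3, 0.0550 for Wnt5b, 0.0797 for Wnt9a and 0.338 for Wnt11. Wnt3 was also lost without Lgr5-T8- replicate 2 (0.174), and with Lgr5-T8hi replicate 1 left out Wnt5b was at 0.300 and Wnt11 at 0.0897, and without Lgr5-T8- replicate 1 they were at 0.0549 and 0.0598. The Wnt target Axin2 was at -0.24 and did not pass. The remaining call was Tcf7, a nuclear partner of beta-catenin, lower at -0.39 ± 0.09 (edgeR adjusted p = 0.0242), with 0.319 and 0.208 without Lgr5-T8hi replicates 1 and 2.

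Of 49 ErbB, FGF, IGF and Hedgehog genes tested, 8 were higher and 8 lower, with a median of 0.09 that was 0.02 and 0.00 with Lgr5-T8hi replicate 1 or 2 left out, and 0.03 and -0.03 with Lgr5-T8- replicate 1 or 2 left out. Without either Lgr5-T8hi library 4 were higher, and 5 were lower without Lgr5-T8hi replicate 2. Igfbp2, a binding protein of insulin-like growth factors, was at 49.2 and 49.9 CPM against 165 and 183 CPM (-1.81 ± 0.12, edgeR adjusted p = 5.57e-06). Igfbp4, a substrate of pappalysin proteases, was at 53.1 and 62.0 CPM against 87.4 and 108 CPM (-0.76 ± 0.09, edgeR adjusted p = 2.30e-04), while Igfbp6 was at 31.9 and 25.4 CPM against 13.7 and 11.1 CPM (1.21 ± 0.13, edgeR adjusted p = 2.15e-04). Among ErbB ligands, Nrg1 fell, and Epgn, epigen, was at 5.91 and 5.94 CPM against 13.0 and 13.0 CPM (-1.13 ± 0.18, edgeR adjusted p = 0.00174). Erbb3, a receptor for neuregulins, was at 31.8 and 20.4 CPM against 18.3 and 13.1 CPM (0.73 ± 0.13, edgeR adjusted p = 0.00351), and was at 0.101 without Lgr5-T8hi replicate 1. Gli1, a transcription factor and target of Hedgehog signalling, was at 9.01 and 7.01 CPM against 2.00 and 1.84 CPM (2.06 ± 0.29, edgeR adjusted p = 0.00268), and was at 0.107 without Lgr5-T8- replicate 1.

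Over all genes tested 3.70% were higher and 3.36% lower, the shares beside which the lists of this paragraph stand. Of 49 TGF-beta and BMP pathway genes, 5 were higher and 1 was lower, with a median of 0.06. Without either Lgr5-T8- library 2 were lower. Id3, a target of BMP signalling that blocks differentiation factors, was at 335 and 186 CPM against 120.1 and 96.9 CPM (1.20 ± 0.16, edgeR adjusted p = 0.00146), and Id1 at 73.6 and 44.0 CPM against 26.8 and 23.0 CPM (1.19 ± 0.19, edgeR adjusted p = 0.00726, 0.0508 without Lgr5-T8hi replicate 1). The ligands Tgfb1, Inhbb and Bmp2 were at 0.48 ± 0.09, 0.95 ± 0.19 and 0.67 ± 0.17, and Tgfb2 was at -0.50 ± 0.10, with adjusted p-values in edgeR of 0.00640, 0.0127, 0.0292 and 0.00898. Each of these 4 lost its call without Lgr5-T8hi replicate 2, at 0.145, 0.0863, 0.197 and 0.204. Tgfb2 was also at 0.0695 without Lgr5-T8hi replicate 1, Inhbb at 0.184 and 0.0668 with Lgr5-T8- replicates 1 and 2 left out in turn, and Bmp2 at 0.206 without Lgr5-T8hi replicate 1, 0.233 with Lgr5-T8- replicate 1 left out, and 0.0721 and 0.0551 without Lgr5+T8hi replicates 1 and 2. Of 22 Notch pathway genes tested, 2 were higher and 0 lower, with a median of 0.11: the receptor Notch1, at 213 and 162 CPM against 129 and 108 CPM (0.65 ± 0.11, edgeR adjusted p = 0.00258, 0.0600 without Lgr5-T8hi replicate 1), and the target Hey1, at 23.7 and 26.1 CPM against 13.7 and 17.0 CPM (0.70 ± 0.11, edgeR adjusted p = 0.00158).

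Axon guidance genes, which also steer epithelial branching, were lower in 11 and higher in 3 of 41 tested, with a median of -0.11, or -0.05 without Lgr5-T8- replicate 1 and -0.19 with Lgr5-T8- replicate 2 left out. The secreted semaphorin Sema3d was at 11.1 and 7.99 CPM against 37.5 and 26.2 CPM (-1.74 ± 0.13, edgeR adjusted p = 9.41e-06) and Sema3a at 0.275 and 0.506 CPM against 2.82 and 2.98 CPM (-2.93 ± 0.37, edgeR adjusted p = 4.58e-04). Slit2, a repellent ligand of Robo receptors, was at 78.1 and 54.4 CPM against 128 and 95.0 CPM (-0.75 ± 0.11, edgeR adjusted p = 0.00153). The netrins went the other way, Ntn1 at 23.1 and 25.8 CPM against 6.85 and 8.60 CPM (1.66 ± 0.13, edgeR adjusted p = 2.30e-05) and Ntn4 at 70.5 and 53.1 CPM against 37.1 and 28.9 CPM (0.90 ± 0.10, edgeR adjusted p = 1.68e-04). The third higher member was the ephrin Efna1 at 0.52 ± 0.10 (edgeR adjusted p = 0.00744), with 0.0577 and 0.103 without Lgr5-T8hi replicates 1 and 2. The number of lower members was 5 and 6 without Lgr5-T8hi replicates 1 and 2 and 7 without either Lgr5+T8hi library. Of 48 ion channel genes, 10 were lower and 5 higher, with a median of 0.06 that was -0.07 without Lgr5-T8- replicate 2, -0.01 with Lgr5-T8hi replicate 1 left out and 0.10 without Lgr5-T8hi replicate 2, and Kcnmb1, Kcnma1 and Ryr3 above were among the lower ones. Kcnh1, a voltage-gated potassium channel, was at 50.5 and 39.4 CPM against 86.1 and 73.2 CPM (-0.83 ± 0.10, edgeR adjusted p = 3.08e-04). Trpm6, a magnesium channel, was higher, at 13.5 and 14.8 CPM against 7.43 and 9.01 CPM (0.79 ± 0.12, edgeR adjusted p = 0.00170). Ion channel members lower numbered 4 without Lgr5-T8hi replicate 2 and members higher 2 with Lgr5-T8hi replicate 1 left out.

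Proteases of the matrix and their inhibitors gave 15 higher and 3 lower of 33 tested, with a median of 0.35. Adamts1, a secreted protease that cuts proteoglycans (chromosome 16, 85793827 to 85803113), had the largest gain in CPM of the genes called, from 1429 and 1236 CPM to 3222 and 2453 CPM (1.08 ± 0.10, edgeR adjusted p = 5.68e-05). Adamts5, an aggrecanase, was at 59.0 and 31.0 CPM against 25.6 and 14.3 CPM (1.16 ± 0.10, edgeR adjusted p = 3.20e-05). Mmp3, stromelysin, was at 4.20 and 4.53 CPM against 1.52 and 1.58 CPM (1.49 ± 0.19, edgeR adjusted p = 5.27e-04). Inhibitors were among the genes that rose: Slpi, an inhibitor of neutrophil elastase, was at 914 and 709 CPM against 357 and 268 CPM (1.38 ± 0.10, edgeR adjusted p = 9.85e-06), and Timp1, an inhibitor of metalloproteinases, at 57.2 and 28.7 CPM against 21.6 and 12.2 CPM (1.33 ± 0.15, edgeR adjusted p = 5.23e-04). The lower members were Serpinb2, Adam12 and Adamts18. Adam12 was at -0.97 ± 0.17 and Adamts18 at -0.56 ± 0.10, with adjusted p-values of 0.00596 and 0.00422 in edgeR, the latter 0.0946 without Lgr5-T8hi replicate 2. The higher members numbered 7 and 8 without Lgr5-T8hi replicates 1 and 2, and 9 with Lgr5-T8- replicate 1 left out. Chil1, a chitinase-like secreted protein of epithelia, also had one of the largest gains in CPM, at 1909 and 1526 CPM against 745 and 906 CPM (1.05 ± 0.13, edgeR adjusted p = 5.22e-04).

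Interstitial collagens and matrix glycoproteins gave 9 higher and 5 lower of 31, with a median of 0.17, or 0.31 without Lgr5-T8- replicate 1 and 0.06 with Lgr5-T8- replicate 2 left out. The type VI collagens Col6a1 and Col6a2 held without each library in turn. Col6a1 was at 281 and 237 CPM against 103 and 89.5 CPM (1.43 ± 0.10, edgeR adjusted p = 5.57e-06), and Col6a2 at 149 and 132 CPM against 50.5 and 47.6 CPM (1.51 ± 0.10, edgeR adjusted p = 3.67e-06). Thbs4, a thrombospondin of tendon and muscle, was at 20.9 and 10.9 CPM against 2.79 and 3.57 CPM (2.28 ± 0.31, edgeR adjusted p = 0.00365). The lower members were Col9a1 above, Eln, Fbn1, Fbn2 and Tnc, which encode elastin, fibrillins and tenascin C, at -0.62, -0.53, -1.38 and -0.83, with adjusted p-values in edgeR of 0.00358, 0.0125, 0.0305 and 0.0156. Without Lgr5-T8hi replicate 1 these 4 were at 0.103, 0.158, 0.232 and 0.146, and with Lgr5-T8hi replicate 2 left out at 0.0515, 0.150, 0.245 and 0.0601. Fbn1 was also at 0.0677 without Lgr5-T8- replicate 1, and Fbn2 at 0.0687 without Lgr5+T8hi replicate 2 and 0.125 with no filter on counts. Without Lgr5-T8- replicate 1, 5 members were higher.

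Markers of fibroblasts, the matrix cells of the stroma, rose with these genes: 12 of 16 were higher and 1 lower, with a median of 1.04, and Col1a1, Col1a2, Col3a1 and Mfap5 are on both lists. Col1a2, a chain of type I collagen, was at 166 and 132 CPM against 63.2 and 70.8 CPM (1.16 ± 0.13, edgeR adjusted p = 3.42e-04). Dpt, dermatopontin, was at 24.9 and 17.9 CPM against 6.82 and 7.87 CPM (1.54 ± 0.16, edgeR adjusted p = 1.86e-04), and Clec3b, tetranectin, at 12 and 10.7 CPM against 3.46 and 5.44 CPM (1.37 ± 0.19, edgeR adjusted p = 0.00136). The lower member was Dcn, decorin, at 231 and 211 CPM against 279 and 396 CPM (-0.59 ± 0.15, edgeR adjusted p = 0.0440). Dcn lost its call without Lgr5-T8hi replicate 2 (0.419), Lgr5-T8- replicate 2 (0.158) and Lgr5+T8hi replicates 1 and 2 (0.0616 and 0.0717). The 16 markers summed to 1901 and 1706 CPM in Lgr5-T8hi and to 1209 and 1382 CPM in Lgr5-T8- cells, without overlap, and 0 of them lacked counts in the 4 libraries. Their part in the rise of the matrix and protease genes was not tested. Higher members numbered 7 without Lgr5-T8hi replicate 1 or Lgr5-T8- replicate 1.

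Few markers of endothelial, immune, pericyte and erythroid cells passed the threshold. Over all genes tested 3.70% were higher and 3.36% lower, and at such shares few calls would fall in lists of 5 to 15 genes. Of 15 endothelial markers, 1 was higher and 0 lower, with a median of 0.13 that was -0.31 in batch 1 and 0.54 in batch 2. The member called was the transcription factor Erg, at 1.06 ± 0.18 (edgeR adjusted p = 0.00333, 0.0713 without Lgr5-T8hi replicate 2). Without Lgr5-T8hi replicate 1, 4 of these markers were higher and the median was 0.64. With Lgr5-T8hi replicate 2 left out 0 were higher, 1 was lower and the median was -0.41. The median was 0.26 without Lgr5-T8- replicate 1, and 1 marker was lower without Lgr5+T8- replicate 2. Immune cell markers gave 0 higher and 0 lower of 15 tested in edgeR, with 1 and 0 at an unadjusted p under 0.05, and summed to 45.8 and 70.2 CPM against 38.6 and 85.4 CPM, which overlap. The leukocyte gene Ptprc was at 2.42 and 2.02 CPM against 1.36 and 1.58 CPM, below the threshold at 0.60 ± 0.25. Pericyte markers gave 0 higher and 0 lower of 10, with 3 and 0 at an unadjusted p under 0.05, and summed to 408 and 281 CPM against 371 and 245 CPM. By limma-voom 1 pericyte marker was higher, and 1 in edgeR without Lgr5-T8- replicate 2 or either Lgr5+T8- library. Erythroid markers gave 0 higher and 0 lower of 5 tested, also at an unadjusted p under 0.05, and summed to 5.22 and 9.24 CPM against 7.25 and 8.57 CPM, with Slc4a1 at 0 counts in all 4 libraries. By DESeq2 and limma-voom, 0 immune and 0 erythroid markers were called.

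Of 7 adipocyte markers tested, of 10, 1 was higher and 1 lower, with a median of 0.68 that was 0.18 without Lgr5-T8hi replicate 2. Without Lgr5-T8hi replicate 1, 3 were higher, and 2 with Lgr5-T8- replicate 2 left out. Lpl, lipoprotein lipase, was at 13.5 and 11.9 CPM against 6.15 and 7.35 CPM (0.91 ± 0.14, edgeR adjusted p = 0.00170), and Lep, the gene of the hormone leptin, at 0.714 and 0.666 CPM against 2.73 and 3.38 CPM (-2.13 ± 0.27, edgeR adjusted p = 4.83e-04). Of 10 Schwann and glial markers, 4 were higher and 0 lower, with a median of 0.80 that was 0.32 without Lgr5-T8- replicate 1, 0.39 with Lgr5-T8hi replicate 1 left out and 1.24 without Lgr5-T8hi replicate 2. Gfra3, a receptor of the ligand artemin, was at 14.6 and 5.51 CPM against 1.85 and 1.95 CPM (2.31 ± 0.32, edgeR adjusted p = 0.00189), and it and Erbb3 were called with the myelin gene Mbp, at 0.36 ± 0.09, and S100b, at 1.48 ± 0.38. Mbp and S100b passed at 0.0362 and 0.0347 in edgeR, and were at 0.237 and 0.465 without Lgr5-T8hi replicate 1, 0.160 and 0.380 with Lgr5-T8- replicate 1 left out, 0.0723 and 0.0798 without Lgr5+T8hi replicate 1 and 0.0659 and 0.0678 with Lgr5+T8hi replicate 2 left out, and Mbp at 0.321 without Lgr5-T8hi replicate 2.

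**Figure D4:**
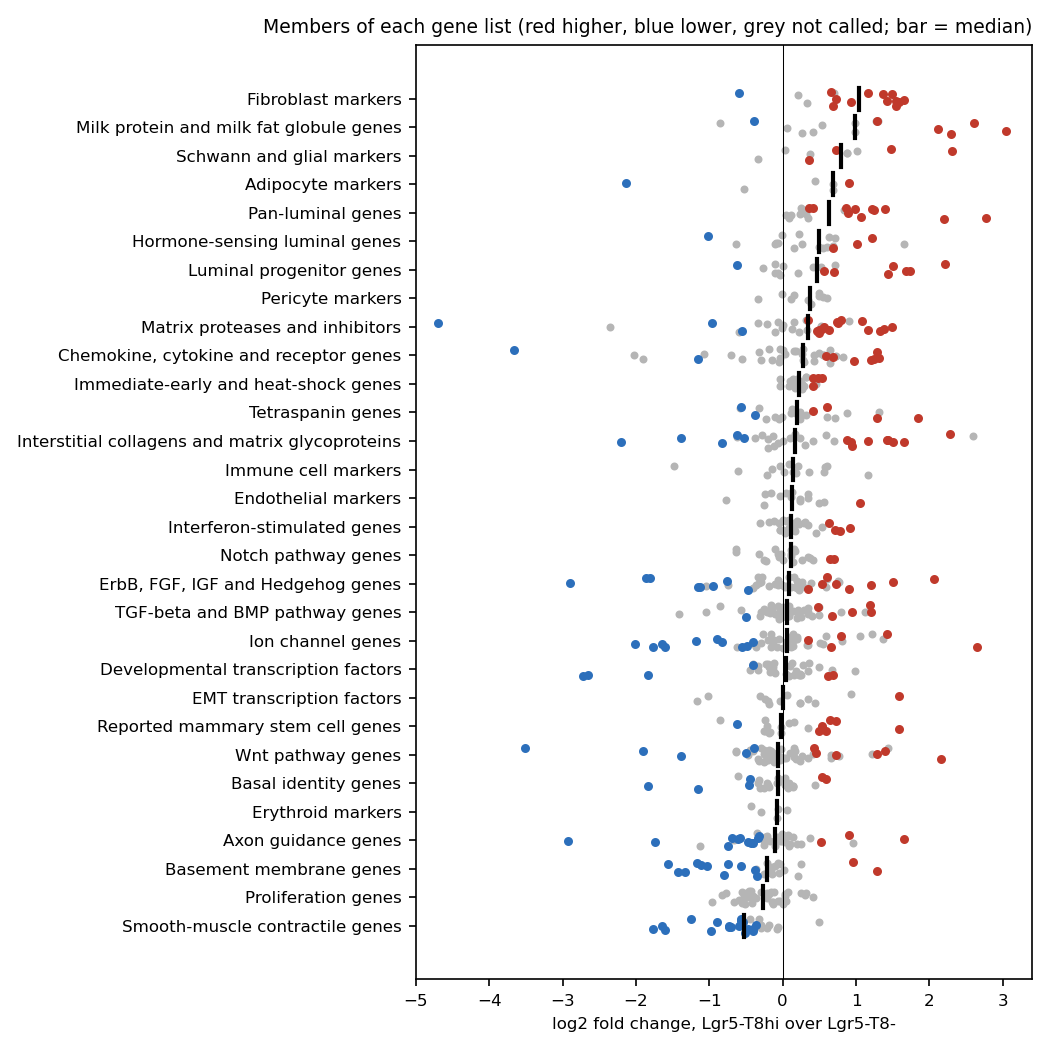
Log2 fold change of Lgr5-T8hi over Lgr5-T8- cells for every tested member of each gene list, lists ordered by their median (black bar), with red for higher, blue for lower and grey for genes that were not called. The contractile list has the lowest median at -0.53, and the fibroblast and milk lists have the highest at 1.04 and 0.99.

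Chemokine, cytokine and receptor genes gave 7 higher and 2 lower of 39 tested, with a median of 0.28, or 0.06 without Lgr5-T8- replicate 1 and 0.15 with Lgr5-T8hi replicate 1 left out. Cxcl2, a neutrophil chemokine, was at 175 and 116 CPM against 68.5 and 53.2 CPM (1.24 ± 0.11, edgeR adjusted p = 3.25e-05). Lif, a cytokine of the interleukin 6 family, was at 122 and 92.6 CPM against 58.8 and 35 CPM (1.21 ± 0.12, edgeR adjusted p = 1.68e-04). Ackr4, a receptor that removes chemokines, was lower, at 11.2 and 13.5 CPM against 23.2 and 32.5 CPM (-1.16 ± 0.12, edgeR adjusted p = 1.10e-04), and so was its ligand Ccl19, at 0.0275 and 0.0533 CPM against 0.455 and 0.625 CPM. Both Lgr5-T8hi values of Ccl19 lay under 3 counts, which equal 0.0782 and 0.0854 CPM in these libraries. By DESeq2 it did not pass (adjusted p = 0.0827). Ccl19 passed at 0.0127 in edgeR and was at 0.0961 and 0.189 without Lgr5-T8hi replicates 1 and 2 and at 0.0890 with Lgr5-T8- replicate 1 left out. Without Lgr5-T8- replicate 2, 12 members were higher and 5 lower. Of 29 interferon-stimulated genes tested, 4 were higher and 0 lower, with a median of 0.11, or 0.22 without Lgr5-T8hi replicate 1: Ifit3 at 0.92 ± 0.15, Ifit1 at 0.78 ± 0.14, Cxcl10 at 0.72 ± 0.13 and Isg15 at 0.63 ± 0.14. Their adjusted p-values in edgeR were 0.00277, 0.00467, 0.00601 and 0.0175. Isg15 was at 0.0725 and 0.169 without Lgr5-T8hi replicates 1 and 2 and 0.171 with Lgr5-T8- replicate 1 left out, Cxcl10 at 0.0782 without Lgr5-T8hi replicate 1, and Ifit1 at 0.0582 with Lgr5-T8hi replicate 2 left out and 0.0517 without Lgr5-T8- replicate 1.

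Immediate-early and heat-shock genes, which are induced quickly by stress, gave 4 higher and 0 lower of 26, with a median of 0.22 that was 0.46 in batch 1 and 0.05 in batch 2. Atf3, a stress transcription factor, was at 1828 and 1791 CPM against 1111 and 1388 CPM (0.54 ± 0.12, edgeR adjusted p = 0.0175). Dusp1, a phosphatase of MAP kinases, was at 1982 and 1437 CPM against 1375 and 1059 CPM (0.48 ± 0.10, edgeR adjusted p = 0.00854). Fosb, a subunit of AP-1, was at 4759.9 and 4551 CPM against 3303 and 3639.7 CPM (0.42 ± 0.11, edgeR adjusted p = 0.0460), and Klf6, a zinc-finger factor, at 0.41 ± 0.11 (edgeR adjusted p = 0.0387). None of the 4 held without each library in turn, and the number called was 0 without Lgr5-T8hi replicate 1 or 2, 1 with Lgr5-T8- replicate 1 left out, 2 without either Lgr5+T8hi library and 15 without Lgr5-T8- replicate 2. The adjusted p of Atf3 was 0.214, 0.0911 and 0.0686 without Lgr5-T8hi replicate 1, Lgr5-T8hi replicate 2 and Lgr5-T8- replicate 1, and that of Dusp1 0.135 and 0.152 without the first and the second of these. For Fosb it was 0.387, 0.247, 0.151, 0.0815 and 0.0814, and for Klf6 0.490, 0.120, 0.124, 0.0698 and 0.0753, without Lgr5-T8hi replicates 1 and 2, Lgr5-T8- replicate 1 and Lgr5+T8hi replicates 1 and 2. The list summed to 36603 and 32871 CPM against 25414 and 31181 CPM, with the lowest value in Lgr5-T8- replicate 1.

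Genes reported to mark mammary stem cells gave 6 higher and 1 lower of 20, with a median of -0.02. Foxc1, a forkhead factor, was at 43.6 and 28.2 CPM against 12.8 and 10.7 CPM (1.59 ± 0.14, edgeR adjusted p = 4.15e-05). Procr, the protein C receptor, was at 82.9 and 39.7 CPM against 61.1 and 23.9 CPM (0.59 ± 0.10, edgeR adjusted p = 0.00455), so that the groups overlapped and the higher level showed only within a batch, and the call was lost without Lgr5-T8hi replicate 2 (0.136). The lower member was Itgb3. Members higher numbered 3 and 2 without Lgr5-T8hi replicates 1 and 2. Over all genes tested 7.06% passed in either direction. Of 14 factors of the epithelial-mesenchymal transition tested, of 16, 1 was higher and 0 lower, Foxc1, with a median of 0.01. Snai2 and Zeb2 were at -0.31 and 0.93 and did not pass. By DESeq2 3 were higher.

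Of the other tetraspanins, 4 were higher and 2 lower of 24 tested, of 26, with a median of 0.20 that was 0.13 without Lgr5-T8- replicate 1. For 15 of the 24 both Lgr5-T8hi libraries lay above both Lgr5-T8- libraries, against 16.7% of all genes. Without Lgr5-T8hi replicate 1, 2 were higher. The lower ones numbered 4 without Lgr5-T8- replicate 2 or Lgr5+T8- replicate 2, 1 without replicate 1 of Lgr5-T8hi or Lgr5-T8-, and 0 with Lgr5-T8hi replicate 2 left out. Tspan17 was at 7.69 and 9.72 CPM against 3.09 and 4.08 CPM (1.28 ± 0.17, edgeR adjusted p = 6.70e-04), and Cd82 at 27.5 and 32.0 CPM against 18 and 21.2 CPM (0.60 ± 0.10, edgeR adjusted p = 0.00195). The other 2 higher members were Tspan33, at 1.84 ± 0.42, and Tspan7, at 0.42 ± 0.10, with adjusted p-values of 0.0194 and 0.0213 in edgeR. Tspan2 was lower, at 68.2 and 67.9 CPM against 94.5 and 108 CPM (-0.57 ± 0.09, edgeR adjusted p = 0.00225), as was Tspan9, at -0.38 ± 0.10 (edgeR adjusted p = 0.0340). Without Lgr5-T8hi replicate 1 the adjusted p was 0.315 for Tspan33, 0.109 for Tspan7 and 0.539 for Tspan9, and without Lgr5-T8hi replicate 2 it was 0.273 for Tspan7, 0.0544 for Tspan2 and 0.105 for Tspan9. Without Lgr5-T8- replicate 1 it was 0.198 for Tspan33 and 0.112 for Tspan9.

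Proliferation genes gave 0 higher and 0 lower of 40 in edgeR, with 2 and 1 where p under 0.05 was left unadjusted, and DESeq2 and limma-voom gave 0. Their median of -0.27 was -0.56 in batch 1 and -0.03 in batch 2, and their summed level was 572 and 919 CPM in Lgr5-T8hi and 619.6 and 942 CPM in Lgr5-T8- cells. The lower library of each population was that of batch 1. The median was -0.02 without Lgr5-T8- replicate 1 and -0.55 with Lgr5-T8- replicate 2 left out, and without the latter 2 members were higher and 4 lower.

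The contrast was then set beside the same contrast in Lgr5+ cells, which uses other libraries for both of its arms, and the difference between the 2 log2 fold changes was tested in the same model. It was past the threshold for 421 genes (2.55%). These were 60 genes (0.363%) with a higher value in Lgr5- cells and 361 genes (2.18%) with a lower one. Several genes that stood higher in Lgr5-T8- cells were among those with a lower value. Zfhx4 was at -2.66 in Lgr5- and -0.10 in Lgr5+ cells, a difference of -2.56 ± 0.24 (edgeR adjusted p = 5.48e-04). Pappa2 was at -2.90 and 0.00, a difference of -2.90 ± 0.29 (edgeR adjusted p = 6.61e-04). Ror2 was at -1.91 and 0.76 (difference -2.67 ± 0.39, edgeR adjusted p = 0.00498), Lyve1 at -2.04 and 0.24 (-2.29 ± 0.29, edgeR adjusted p = 0.00239) and Col9a1 at -2.21 and 0.06 (-2.27 ± 0.32, edgeR adjusted p = 0.00951). The difference for Col9a1 was at 0.0774 and 0.0591 without Lgr5+T8hi replicates 1 and 2. Sema3g, a secreted semaphorin, was at 4.01 and 11.7 CPM against 5.34 and 9.19 CPM in the Lgr5- populations (0.01 ± 0.20) and at 2.73 in Lgr5+ cells, a difference of -2.72 ± 0.29 (edgeR adjusted p = 0.00121).

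The differences of Serpinb2, Spock3 and Lars2 were -5.41 ± 0.88, -3.67 ± 0.50 and -3.43 ± 0.37, with adjusted p-values in edgeR of 0.0268, 0.00342 and 0.00967. Serpinb2 was at -4.58 (adjusted p = 0.0976) without Lgr5+T8hi replicate 2, -5.41 (0.0803) with Lgr5-T8- replicate 1 left out and -5.40 (0.0934) without Lgr5-T8- replicate 2. Spock3 was at -3.21 (0.0714) with Lgr5+T8hi replicate 1 left out. Lars2 was at -3.31 (0.210) and -3.59 (0.160) without Lgr5-T8- replicates 1 and 2. With no filter on counts Serpinb2 was at -5.39 (0.0605) and Lars2 at -3.41 (0.0548).

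Genes with a larger rise in Lgr5- than in Lgr5+ cells included several of those above. Ocln was at 2.77 in Lgr5- and 1.26 in Lgr5+ cells, a difference of 1.51 ± 0.18 (edgeR adjusted p = 0.00164). Esyt3, a protein that tethers the endoplasmic reticulum to the cell membrane, was at 27.4 and 29.9 CPM against 5.58 and 4.49 CPM in the Lgr5- populations (2.49 ± 0.15) and at 0.98 in Lgr5+ cells, a difference of 1.52 ± 0.20 (edgeR adjusted p = 0.00285). Slpi was at 1.38 and 0.17 (difference 1.21 ± 0.14, edgeR adjusted p = 0.00164), and Sfrp1 at 2.16 and 1.06 (1.10 ± 0.15, edgeR adjusted p = 0.00285). Csn3, at 2.30 and 2.31, had a difference of -0.00 ± 0.18 (edgeR adjusted p = 0.997), and Acta2, at -0.73 and -0.61, one of -0.12 ± 0.14 (edgeR adjusted p = 0.841). Of the contractile list, 14 of 28 were lower in Lgr5+ cells, where 2.17% of all genes tested were. The difference was past the threshold with a lower value in Lgr5- cells for 2.18% of all genes tested. On this list it was so for Des and Myocd, at -0.85 and -1.78 (edgeR adjusted p = 0.0427 and 0.0237). Both lost that call without either Lgr5+T8- library, either Lgr5+T8hi library or Lgr5-T8hi replicate 2, at 0.0710 to 0.260 for Des and 0.0782 to 0.122 for Myocd, and Des was at 0.0606 without Lgr5-T8- replicate 2 and 0.0621 with Lgr5-T8hi replicate 1 left out.

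Marker lists of other cell types were then compared between the contrasts. In Lgr5+ cells 7.27% of all genes tested were higher with Tspan8. Among the markers, 14 of 15 endothelial, 11 of 15 immune, 8 of 10 pericyte and 4 of 5 erythroid ones were higher there. In Lgr5- cells, where 3.70% of all genes tested were higher, the numbers were 1, 0, 0 and 0. The difference itself was past the threshold, with a lower value in Lgr5- cells, for 2.18% of all genes tested. Of the markers, it was so for 3 endothelial, 6 immune, 4 pericyte and 3 erythroid ones. Among them Ptprc was at 0.60 in Lgr5- and 2.72 in Lgr5+ cells (difference -2.12 ± 0.36, edgeR adjusted p = 0.0107, 0.0561 without Lgr5+T8- replicate 2 and 0.0840 with Lgr5+T8hi replicate 2 left out) and the pericyte receptor Notch3 at 0.34 and 1.79 (-1.45 ± 0.19, edgeR adjusted p = 0.00379). Fibroblast markers were higher in both, 12 and 14 of 16. For 3 of the 16 the difference was past the threshold with a lower value in Lgr5- cells, against the same 2.18%.

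**Figure D5:**
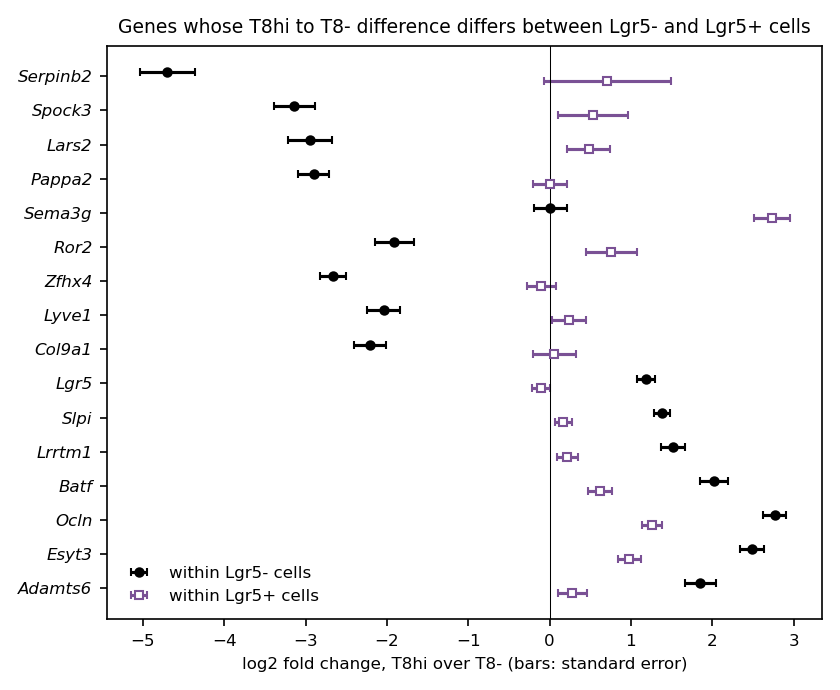
Log2 fold change of T8hi over T8- cells within Lgr5- cells (filled circles) and within Lgr5+ cells (open squares), with standard errors, for 16 genes whose difference between both was past the threshold. Serpinb2, Spock3, Lars2 and Pappa2 are far below 0 in Lgr5- cells, while Ocln and Esyt3 are above 0 in both and higher in Lgr5- cells.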

How the data were processed

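RNA from sorted basal cells of 4 populations was sequenced, with 2 libraries per population. The deposited files hold raw read counts per Entrez gene, and the authors also deposited a gene length in bases, per the file headers. Per the submitters' processing notes the tools were edgeR 3.10.2, limma 3.24.14, featureCounts and CASAVA 1.8.2, and the build mm10 (GRCm38), with no role given for any. The aligner and the strand setting are not given in the sources used here, so that reads of overlapping genes on opposite strands may be shared.

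Symbols and coordinates came from RefSeq GRCm38.p6, which named 25260 of 27164 genes. Counts of all 8 libraries were fitted with edgeR 4.0.16 in R 4.3.3 (filterByExpr with a minimum count of 10, TMM, population and batch as terms, robust quasi-likelihood, 3 residual degrees of freedom), which tested 16526 genes and left out 10638. P-values were adjusted by Benjamini-Hochberg over all genes tested, with a threshold of 0.05. The standard error is the log2 fold change divided by the square root of F. Ratios within a batch used a pseudocount of 0.1 CPM. The model was also run on counts simulated from its own fitted values and spread. Such counts follow the model, so that run could not test the batch term or the estimate of spread. The libraries used here held 25904146 to 38384875 counts, and 3 counts equal 0.116 CPM in the smallest.

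Batch equals the replicate number in the labels. Deviations from the population means correlated between libraries of the same batch in all 6 pairs of populations (r of 0.415 to 0.55), and batch was kept as a block. The biological coefficient of variation was 0.0928 with it and 0.192 without. Alternatives were no block, RLE scaling, other count filters, DESeq2 1.42.0, limma-voom (limma 3.58.1), the 4 Lgr5- libraries alone and each library left out.

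Named genes were Tspan8 and Lgr5, the 12 highest and 12 lowest fold changes and the 6 largest gains and losses in CPM among genes called whose mean reached 5 CPM and whose sign was shared by both batches, the 4 members of each list with the smallest p, all contractile and milk genes, the 6 highest and 6 lowest differences from Lgr5+ cells, and genes nearly without counts in one population, of which there were 0 in each direction. Other names were chosen after their values were seen. The members and gene lists were chosen with earlier results of these data known.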

Additional observations from a re-analysis of the deposited data

Results flagged for a closer look

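For 44 of the genes named in the text the log2 fold change of T8hi over T8- cells differed between Lgr5- and Lgr5+ cells by edgeR's test of the difference, with adjusted p-values under 0.05. Values are the change in Lgr5- cells minus that in Lgr5+ cells. Among genes treated in the report, the value was lower in Lgr5- cells for Serpinb2 (-5.41), Spock3 (-3.67), Lars2 (-3.43), Pappa2 (-2.90), Sema3g (-2.72), Ror2 (-2.67), Zfhx4 (-2.56), Lyve1 (-2.29), Col9a1 (-2.27), Ptprc (-2.12), Myocd (-1.78), Notch3 (-1.45) and Des (-0.85). It was also lower for Il1r2 (-4.43), Krt1 (-4.28), Sema3a (-3.53), Igfbp4 (-1.70), Col3a1 (-1.59), Dcn (-1.45), Sema3d (-1.36), Ifit3 (-1.19), Camk1d (-1.17), Tbx2 (-1.11), Nrg1 (-1.05), Ifit1 (-1.04), Lpl (-1.04), Cxcl10 (-0.94), Col4a1 (-0.83), Col1a2 (-0.81), Igfbp2 (-0.78), Eln (-0.73), Col4a2 (-0.71) and Kcnh1 (-0.60). It was higher in Lgr5- cells for Esyt3 (1.52), Ocln (1.51), Lgr5 (1.30), Slpi (1.21), Sfrp1 (1.10), Timp1 (1.06), Cxcl2 (0.81), Lif (0.78), Col6a1 (0.63), Ntn4 (0.61) and Col6a2 (0.59). Because the populations were sorted by Lgr5, the value of Lgr5 here and below describes the sort. Igfbp4 was at -0.76 in Lgr5- and 0.94 in Lgr5+ cells, and Dcn at -0.59 and 0.86, so that each had opposite signs. In the 8 fits that left out 1 library each, 16 of the 44 differences stayed past the threshold in every fit: Il1r2, Krt1, Pappa2, Sema3g, Ror2, Zfhx4, Lyve1, Igfbp4, Notch3, Sema3d, Nrg1, Esyt3, Ocln, Lgr5, Slpi and Sfrp1. The other 28 lost the call in at least 1 fit, with 116 lost calls in all, and in each of the 116 the difference stayed within 1.5 times its value. The call was lost in 7 fits for Col1a2, Des and Ntn4, in 6 for Col4a2, Col6a1, Col6a2, Kcnh1 and Timp1, in 5 for Lif, Lpl and Myocd, and in 4 for Camk1d, Col3a1, Col4a1, Cxcl10, Eln, Ifit3, Igfbp2 and Sema3a. It was lost in 3 fits for Cxcl2, Ifit1 and Serpinb2, in 2 for Col9a1, Lars2 and Ptprc, and in 1 for Dcn, Spock3 and Tbx2. Adjusted p-values in these fits reached 0.289, for Kcnh1. By library left out, 24 and 21 genes lost the call without Lgr5+T8hi replicates 2 and 1, 18 and 10 with Lgr5+T8- replicates 2 and 1 left out, 15 and 14 without Lgr5-T8hi replicates 1 and 2, and 8 and 6 with Lgr5-T8- replicates 2 and 1 left out. Groups of 2 libraries are too small for a test of single outlying libraries.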

How the results depend on the processing

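The replicate block (batch as the term that pairs libraries of the same number) changed the counts most: with no replicate block 76 genes were higher and 71 lower in Lgr5-T8hi cells, and the difference from Lgr5+ cells was past the threshold for 0 genes with a higher and 1 gene, Il1r2, with a lower value (125 and 835 at an unadjusted p under 0.05 in edgeR). With the block the difference was past the threshold for 60 and 361 genes in edgeR and for 67 and 399 in DESeq2. With the 4 Lgr5- libraries only and no replicate block, 13 genes were higher and 23 lower, and with the block 695 and 641. With at least 1 CPM in 4 libraries the difference had a higher value for 39 genes, and with no filter on counts for 91. With 1 library left out, higher genes ranged from 290 to 926 and lower genes from 199 to 1017, with the extremes without Lgr5-T8hi replicate 1 and Lgr5-T8- replicate 2. Genes with a difference ranged from 14 to 162 (higher) and from 104 to 422 (lower), lowest without an Lgr5+T8hi library and highest without Lgr5-T8- replicate 2. RLE scaling, DESeq2 and limma-voom gave 566 to 641 higher and 539 to 584 lower genes. Of the 160 named genes tested, 0 reversed under any alternative, and 138 had a call to lose. Of these 138, 117 lost their call with the 4 Lgr5- libraries only and no replicate block. With all 8 libraries and no replicate block 94 lost it, with DESeq2 6 and with limma-voom 1. Without 1 library 41 lost it at most (Lgr5-T8hi replicate 2), then 39 (Lgr5-T8hi replicate 1) and 23 (Lgr5-T8- replicate 1). The difference could not be fitted with the 4 Lgr5- libraries only. The cause of these changes was not tested. A count of 0 allows up to 0.116 CPM in the smallest library.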

Other observations

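Among genes that passed the threshold, 2 without a symbol in the tables used here had levels far above the other libraries in Lgr5-T8- cells. Both are very short. The gene with the Entrez ID 100628626, of 82 bases, was at 85.6 and 46.7 CPM in Lgr5-T8hi cells, at 1068 and 693 CPM in Lgr5-T8- cells and at 50.4 to 122 CPM in the Lgr5+ libraries (-3.75 ± 0.42, edgeR adjusted p = 0.0108). That with the ID 100628579, of 87 bases, was at 5.16 and 2.10 CPM against 31.4 and 21.1 CPM (-2.94 ± 0.25, edgeR adjusted p = 1.43e-04). Lars2, at 149 and 108 CPM against 1188 and 796 CPM, had the same order of libraries, and so had Serpinb2, Zfhx4, Pappa2 and Camk1d. The order of 4 libraries therefore does not single out Lars2, and a link between these genes was not tested.

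Krt1, a keratin of differentiated epidermis, was at 0.467 and 0.479 CPM in Lgr5-T8hi and at 6.85 and 4.19 CPM in Lgr5-T8- cells (-3.51 ± 0.30, edgeR adjusted p = 3.37e-05).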
